A study of Homo sapiens with 24 samples.

Results

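The histone genes of HepG2, a human liver cancer cell line, were followed through treatment with inhibitors of the BET proteins, which read acetylated lysines on histones. Members were chosen by symbol alone: 90 of the 26475 symbols in the count files carried a HIST1, HIST2, HIST3 or HIST4 name or a name starting with H1F, H2AF or H3F. They comprised 66 replication-dependent genes, 16 replacement genes, 4 testis genes and 4 pseudogenes. RNA was sequenced in 24 libraries, 3 for each of 8 groups. The groups were DMSO (the solvent), ABBV-075 at 50 nM, ABBV-744 at 50 nM, ABBV-744 at 500 nM, interferon gamma (IFNg), and IFNg together with each of the 3 inhibitor treatments. ABBV-075 binds both bromodomains of the BET proteins, and ABBV-744 prefers the second bromodomain. The methods of the study give 12 h for ABBV-075, while the clause that names DMSO gives 24 h, so a difference in time cannot be told apart from ABBV-075 in their comparison. The times of the ABBV-744 and IFNg groups and the amount of IFNg were not given in the sources used here. All groups share 1 cell line. The methods call the DMSO and ABBV-075 samples independent, in triplicate, without stating separate cultures, and for the other 6 groups no source used here says what a replicate was. The p-values measure the spread between these samples, which may be technical.

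Replication-dependent histone genes supply the core histones and the linker histone H1 while DNA is copied. Their messages usually end in a short stem-loop, bound by SLBP, instead of a poly(A) tail, and most of the genes lie in clusters where an H2A gene and an H2B gene often start head to head from one shared stretch. Replacement histone genes usually lie alone, are made through the whole cell cycle, carry poly(A) tails and exchange into chromatin outside replication. Here the class was set by name (every H1F, H2AF and H3F symbol except pseudogenes), so these traits need not hold for each member. Among its members, H1FNT, H1FOO and H2AFB1 to H2AFB3 had 0 counts in every library. H2AFX, made in S phase and also polyadenylated, is counted in this class. Ribosomal RNA was depleted here without selecting poly(A) tails, so messages of both kinds could enter the libraries.

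The stem-loops are shown because they set the classes apart. A stem of 6 bases, starting with GG, a loop of 4 bases, starting with TTT, and the matching stem were found in GENCODE transcripts of 61 of 66 replication-dependent genes and in 1 of 16 replacement genes, H2AFX. All 4 testis genes held it and none of the 4 pseudogenes did. The 5 replication-dependent genes without this form in an annotated transcript were HIST1H3E, HIST1H2AG, HIST1H2AK, HIST1H4L and HIST1H2BI. The stem and loop are in capitals in the DNA letters of the transcripts, 5′ to 3′.
HIST1H2BM: ccaaaGGCTCTTTTCAGAGCCgtcca
HIST2H2BE: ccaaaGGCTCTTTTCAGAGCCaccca
HIST1H3B: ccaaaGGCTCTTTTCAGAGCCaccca
HIST1H4C: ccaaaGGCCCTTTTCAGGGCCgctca
HIST4H4: caaaaGGCCCTTTTCAGGGCCccca
H2AFX: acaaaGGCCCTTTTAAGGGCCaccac

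The stretches upstream of 5 members that moved in different directions are shown next, 5′ to 3′ on the strand of the gene. Capitals mark TATAA (the core of the TATA box), the CCAAT box, the letters GGTCC known from H4 promoters and ATTTGCAT, the octamer known from H2B promoters, on either strand. They come from RefSeq on GRCh38.p14 and end at the base before the annotated start. HIST1H2BM at chr6:27814772-27815021 on the plus strand shares its stretch with HIST1H2AJ, whose start lies 245 bases away on the other strand. HIST2H2BE at chr1:149886683-149886932 on the minus strand faces HIST2H2AC across 236 bases. HIST1H2AB lies at chr6:26033619-26033868, HIST4H4 at chr12:14771132-14771381 and H2AFX at chr11:119095466-119095715, all on the minus strand.
HIST1H2BM: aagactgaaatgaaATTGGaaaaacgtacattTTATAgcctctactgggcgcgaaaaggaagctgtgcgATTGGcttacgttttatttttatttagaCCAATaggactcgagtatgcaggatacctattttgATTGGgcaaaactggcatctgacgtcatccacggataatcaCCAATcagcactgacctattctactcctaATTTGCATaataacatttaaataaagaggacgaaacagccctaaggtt
HIST2H2BE: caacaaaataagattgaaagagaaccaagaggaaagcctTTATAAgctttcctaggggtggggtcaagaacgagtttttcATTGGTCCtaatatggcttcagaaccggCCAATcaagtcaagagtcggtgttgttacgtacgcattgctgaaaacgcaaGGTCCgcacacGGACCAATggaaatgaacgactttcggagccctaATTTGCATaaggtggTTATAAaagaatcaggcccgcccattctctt
HIST1H2AB: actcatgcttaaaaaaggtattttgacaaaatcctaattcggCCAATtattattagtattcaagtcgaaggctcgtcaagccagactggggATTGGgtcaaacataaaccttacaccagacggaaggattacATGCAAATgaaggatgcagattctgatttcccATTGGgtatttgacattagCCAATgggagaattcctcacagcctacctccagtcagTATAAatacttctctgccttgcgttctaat
HIST4H4: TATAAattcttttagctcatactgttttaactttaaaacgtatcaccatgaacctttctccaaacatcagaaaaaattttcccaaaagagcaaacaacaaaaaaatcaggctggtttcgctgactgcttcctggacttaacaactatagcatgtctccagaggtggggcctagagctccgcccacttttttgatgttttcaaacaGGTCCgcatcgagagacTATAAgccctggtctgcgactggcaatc
H2AFX: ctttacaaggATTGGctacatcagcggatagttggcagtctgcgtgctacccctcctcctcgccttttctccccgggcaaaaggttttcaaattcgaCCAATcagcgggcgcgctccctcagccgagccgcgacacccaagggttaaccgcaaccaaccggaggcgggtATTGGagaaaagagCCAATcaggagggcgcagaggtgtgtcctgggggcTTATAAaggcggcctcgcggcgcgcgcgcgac

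In windows of 300 bases (250 before and 50 after the start), 56 of 61 replication-dependent promoters held TATAA (91.8%) and 51 held CCAAT (83.6%), against 20.4% and 34.6% of all 35116 promoters. ATTTGCAT was in 24 of these 61 promoters (39.3%), against 1.77% of all promoters, and 13 of 17 H2B and 10 of 15 H2A promoters held it. GGTCC was in 12 of 13 H4 promoters (92.3%), against 46.3% of all promoters, and in 21 of the 61 (34.4%). Of 14 replacement promoters, 5 held TATAA, 11 CCAAT, 4 GGTCC and 1 ATTTGCAT. H1F0 has no entry in this promoter table. Windows of genes that start head to head overlap, so the same motif can count for both partners. A match of letters is a description.

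Reads on genes numbered 2978982 to 4304103 per library, which was 12% to 16.8% of the reads in the files, and 56% to 69.4% aligned to more than 1 place. Liver genes were expressed in every library (ALB 1878.9 to 3555.2 CPM, where CPM are counts per 1000000 counts on genes, with edgeR's TMM library sizes), and PTPRC, CD3E and COL3A1 (blood and fibroblast genes) had 0 counts in all 24. The fibroblast gene COL1A1 and the endothelial genes PECAM1 and VWF had at most 2, 5 and 4 counts in a library. CD68, listed as a blood gene, was counted in every library, at 7.42 to 22.7 CPM (25 to 86 counts). The BET inhibitor marker HEXIM1 stood at 50.6 to 56.8 CPM with DMSO and 137 to 152 CPM with ABBV-075. With ABBV-744 it stood at 60.3 to 68 CPM at 50 nM and 84.3 to 93.9 CPM at 500 nM. With IFNg alone HEXIM1 lay at 44.8 to 49.3 CPM, and with IFNg+ABBV-075 at 129 to 140 CPM. With IFNg+ABBV-744 it lay at 38.7 to 55.5 CPM at 50 nM, overlapping IFNg alone, and at 69.4 to 73.2 CPM at 500 nM. IRF1, a target of IFNg, stood at 10.9 to 13.7 CPM with DMSO and 210 to 252 CPM with IFNg. The IFNg+ABBV-744 libraries stood apart from IFNg alone and from ABBV-744 alone. On the first principal component, which held 45.7% of the variance, they lay at 21.63 to 31.99. IFNg alone lay at -33.81 to -23.80, ABBV-744 alone at -54.29 to -16.67 and IFNg+ABBV-075 at 34.87 to 48.86. One ABBV-075 library, replicate 3, lay at 4.48, against 44.61 and 30.99 for the other two.

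Of the 90 members, 18 had 0 counts in every library and 25 never exceeded 3 counts in a library. After genes with too few counts were set aside (edgeR's filterByExpr), 57 members were tested in ABBV-075 against DMSO: 47 of 66 replication-dependent genes, 9 of 16 replacement genes, 1 pseudogene (H3F3AP4) and 0 testis genes. H3F3A, 1 of the genes for the replacement H3, was listed at 0 in all 24 libraries. Only 11.7% of its 75-base words recur in other annotated transcripts, so its 0 is not read here as absence of the message. The near-identical HIST2H3A, HIST2H3C, HIST2H2AA3, HIST2H2AA4, HIST2H4A, HIST2H4B and H2AFB1 to H2AFB3 were also listed at 0, with 85.4% to 100% of their words shared. Counts cover reads with 1 place in the genome only, so reads from near-identical copies are missing. The share of words alone does not set whether a gene was counted. HIST1H3D, with 96.3% shared, had 79622 counts over the 24 libraries. Whether the members at 0 were expressed cannot be told from these counts.

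Histone messages were abundant. All members together took 1.63% to 2.4% of the counts on genes. Per kilobase of the longest GENCODE transcript, the highest levels with DMSO were those of HIST1H3B (3484 CPM per kb), HIST1H4C (2245.6 CPM per kb) and HIST1H3C (2180.2 CPM per kb). The replacement genes H2AFX, H3F3B and H1F0 stood at 170, 152 and 127 CPM per kb on the same scale. Replacement genes gave 6.91% to 12.6% of the summed histone CPM, depending on the library.

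**Figure D1:**
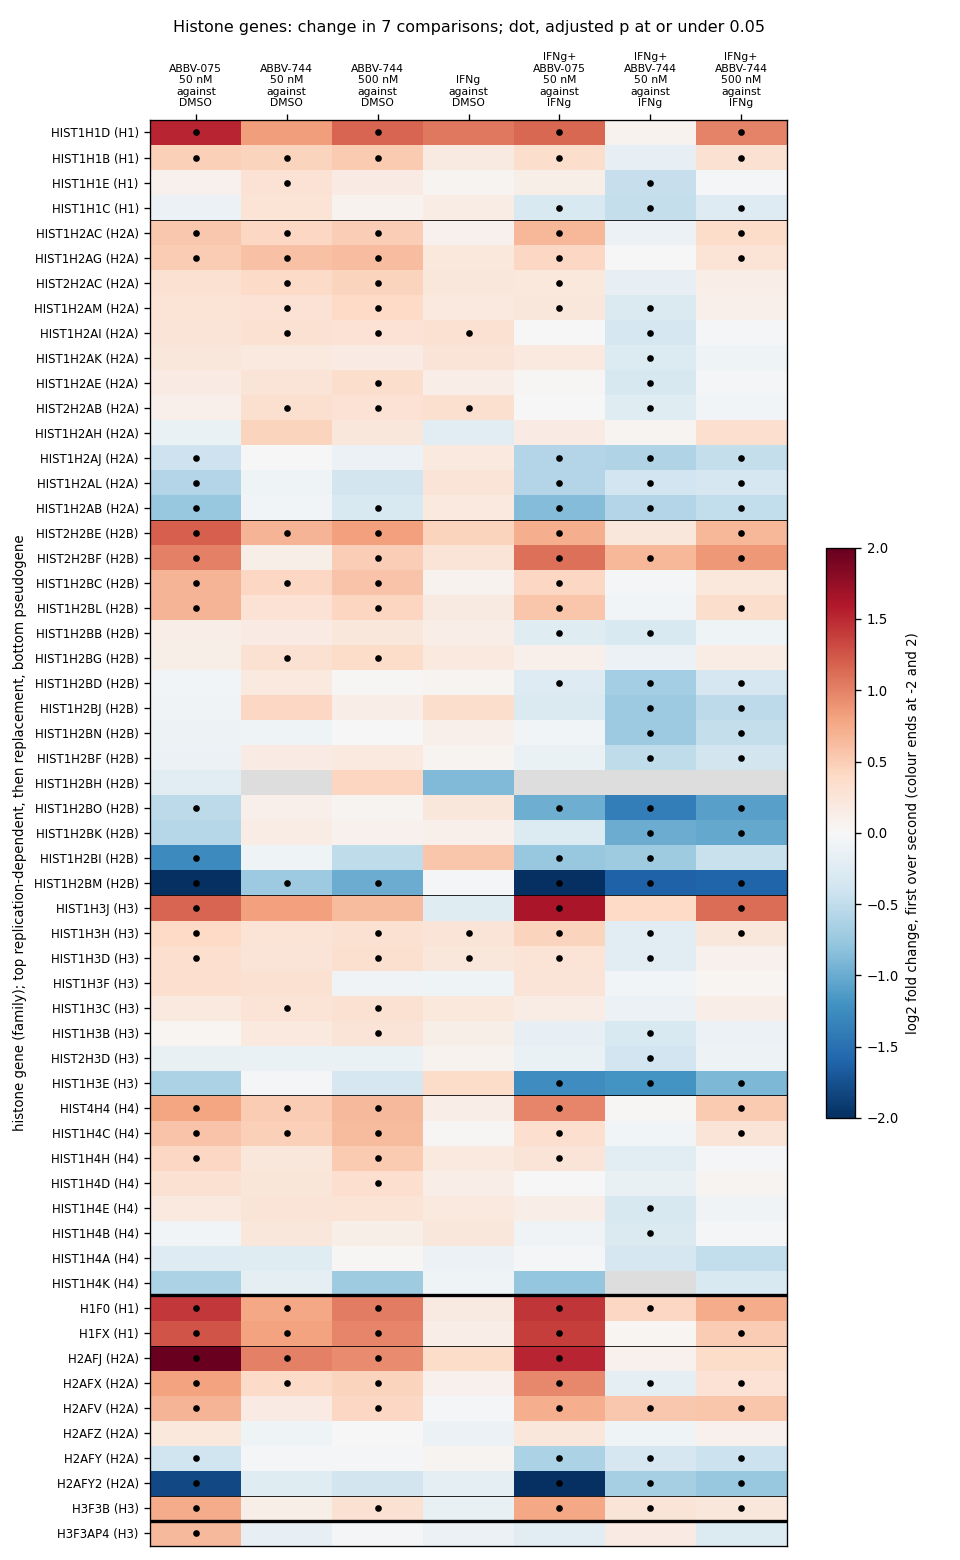
Log2 fold change (colour) of each tested histone gene (rows, grouped by class and then family) in 7 comparisons (columns), with a dot where the adjusted p was at or under 0.05 and grey where the gene was not tested. With ABBV-075 against DMSO, 21 members were higher and 8 lower, and with IFNg+ABBV-744 at 50 nM against IFNg, 4 were higher and 29 lower.

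The comparison of ABBV-075 with DMSO addresses which genes a BET inhibitor changes in liver cancer cells. Replacement and replication-dependent genes both split. Of the 57 members tested, 21 rose and 8 fell (edgeR's quasi-likelihood test, Benjamini-Hochberg adjusted p at or under 0.05 over all genes), which is 36.8% and 14% of those tested. Of all 11244 genes tested, 19.8% rose and 19.6% fell. Among the 9 replacement genes, 6 rose and 2 fell, with a median log2 fold change of 0.74. Among the 47 replication-dependent genes, 14 rose, 6 fell and 27 were not called, with a median of 0.13, and over all genes the median was 0.03. When a log2 change of 1.5 or more in size was also required, 4 members passed, and 4.28% of all genes did. Leaving out the DMSO replicates 1, 2 or 3 lowered the count of falling members to 5 each, and leaving out ABBV-075 replicate 2 lowered it to 4. A correction for GC content raised the count of rising members to 35.

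Both tested linker histone genes of the replacement class rose. H1F0, which encodes a linker histone known from resting and differentiated cells, stood at 283, 274 and 280 CPM with DMSO and at 775, 738 and 768 CPM with ABBV-075. The groups lay far apart, and the log2 fold change was 1.42 ± 0.10 (SE, n = 3 and 3, adjusted p = 1.60e-06). H1FX, a second replacement linker histone, stood at 71.3, 59.9 and 76.8 CPM with DMSO and at 139, 169 and 198 CPM with ABBV-075. Every treated library was above every control, and the log2 fold change was 1.26 ± 0.15 (adjusted p = 8.01e-05).

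H2A replacement genes went both ways. H2AFJ, which encodes the variant H2A.J, had the largest rise, from 3.48, 3.33 and 4.53 CPM to 14.5, 14.4 and 16.8 CPM, on 13 to 19 counts per DMSO library. Its log2 fold change was 1.98 ± 0.24 (adjusted p = 7.43e-05). H2AFX, whose product is phosphorylated at DNA breaks and whose message can end at a stem-loop or in a poly(A) tail, stood at 283, 258 and 270 CPM with DMSO and at 443, 456 and 538 CPM with ABBV-075. The groups did not overlap (0.80 ± 0.11, adjusted p = 0.000273). H2AFV, which encodes an H2A.Z protein, rose from 97.6, 97.7 and 97.1 CPM to 156, 155 and 164 CPM, and its log2 fold change was 0.68 ± 0.11. The other H2A.Z gene, H2AFZ, stood at 127, 116 and 131 CPM with DMSO and at 166, 128 and 144 CPM with ABBV-075. These groups overlapped, and the log2 difference of 0.21 had a 95% interval of -0.06 to 0.48 (adjusted p = 0.201).

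The macroH2A genes moved the other way. H2AFY2 was at 24.9, 22.4 and 25 CPM with DMSO and at 6.03, 7.18 and 7.82 CPM with ABBV-075. No library of one group came near the other, and the log2 fold change was -1.81 ± 0.19 (adjusted p = 3.60e-05). H2AFY, the second macroH2A gene, was at 109, 115 and 106 CPM with DMSO and at 87.6, 77.5 and 89 CPM with ABBV-075 (-0.40 ± 0.12, adjusted p = 0.0195). That call was lost without any single DMSO library or without ABBV-075 replicate 2. H3F3B, the measured gene for the replacement H3, rose from 405, 427 and 437 CPM to 677, 703 and 769 CPM without overlap (0.74 ± 0.11, adjusted p = 0.00029).

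**Figure D2:**
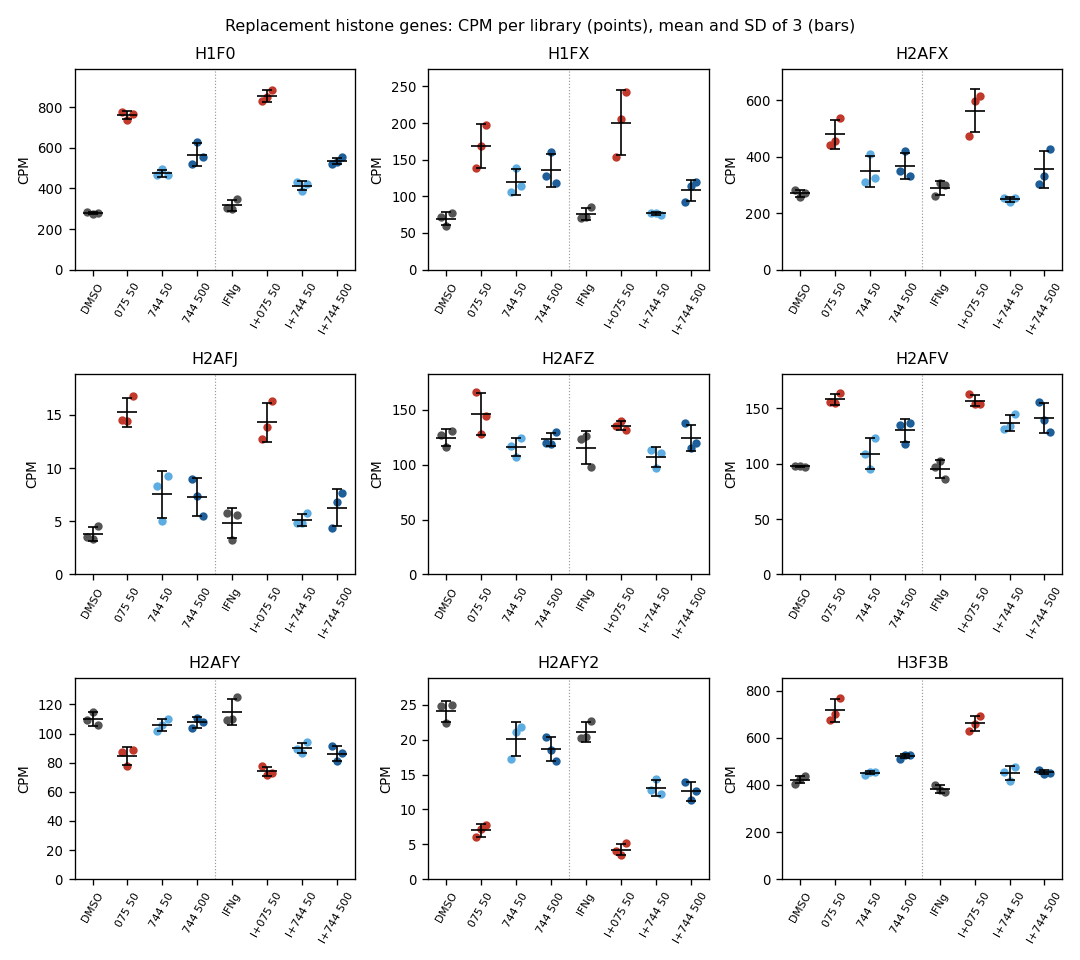
CPM (y axes, from 0) of the 9 tested replacement genes in each library (points), with the mean and SD of the 3 libraries of a group (bars). On the x axes, the inhibitors are given by the end of their names, followed by their dose in nM, and I marks IFNg. H1F0 lay at 274 to 283 CPM with DMSO and at 738 to 775 CPM with ABBV-075, while H2AFY2 lay at 22.4 to 25 and at 6.03 to 7.82 CPM.

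Among the replication-dependent genes, an H2B gene fell most. HIST1H2BM stood at 61.9, 57.7 and 55.6 CPM with DMSO (231 to 260 counts) and at 9.17, 16.7 and 15.6 CPM with ABBV-075 (38 to 58 counts). The lowest control lay far above the highest treated library, and the log2 fold change was -2.11 ± 0.20 (adjusted p = 1.48e-05). HIST1H2BI, a second H2B gene, stood at 10.7, 13.1 and 14.5 CPM with DMSO and at 5.07, 4.88 and 6.31 CPM with ABBV-075 (-1.27 ± 0.24, adjusted p = 0.00141). HIST1H2AB, an H2A gene, fell from 478, 449 and 441 CPM to 250, 244 and 327 CPM, and the groups did not overlap (-0.76 ± 0.13, adjusted p = 0.000823). The other members that fell were HIST1H2AJ (-0.41), HIST1H2AL (-0.59) and HIST1H2BO (-0.52), named after their values were seen. All 6 encode H2A or H2B, as do 12 (H2A) and 15 (H2B) of the 47 tested. No replication-dependent H1, H3 or H4 gene was called lower in this comparison. All 6 hold ATTTGCAT in the promoter window, as do 23 of 32 replication-dependent H2A and H2B promoters. HIST1H2BM and HIST1H2AJ start 245 bases apart, so their windows overlap and are not separate stretches. Of the 21 of these 23 that were tested, 5 rose and 6 fell.

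Rises among the replication-dependent genes came from all 5 families, with 2 of 4 H1 genes, 2 of 12 H2A, 4 of 15 H2B, 3 of 8 H3 and 3 of 8 H4. HIST2H2BE, an H2B gene of the HIST2 cluster, stood at 24.4, 24 and 26.5 CPM with DMSO and at 50.7, 64.3 and 58.9 CPM with ABBV-075. The levels did not overlap (1.19 ± 0.15, adjusted p = 0.000103). HIST2H2BF, an H2B gene of the same cluster, went from 23.1, 23.3 and 23.4 CPM to 53.6, 49.7 and 39.7 CPM (1.01 ± 0.15, adjusted p = 0.000395), and 50.6% of its 75-base words recur elsewhere. HIST4H4, an H4 gene that lies alone on chromosome 12, went from 115, 104 and 102 CPM to 173, 158 and 234 CPM (0.79 ± 0.15, adjusted p = 0.00152). Its start site lies 3274 bases from that of H2AFJ. Both genes stood higher in all 3 treated libraries than in any control.

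Some large changes rested on few reads. HIST1H1D, an H1 gene, stood at 2.95, 1.78 and 2.15 CPM with DMSO and at 5.79, 5.17 and 9.32 CPM with ABBV-075 (1.53 ± 0.35, adjusted p = 0.00443). HIST1H3J stood at 1.61, 4 and 2.86 CPM with DMSO and at 7, 4.59 and 8.12 CPM with ABBV-075 (1.16 ± 0.35, adjusted p = 0.0204). Its annotation overlaps HIST1H2AM on the same strand by 408 bases, so its reads are uncertain. The call of HIST1H3J was lost with DESeq2 and without DMSO replicate 1 or 3.

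Of the 4 most abundant replication-dependent genes, 2 rose and 2 were not called. HIST1H3B stood at 1871.1, 1731.5 and 1738.3 CPM with DMSO and at 1743.1, 1639.8 and 2181.3 CPM with ABBV-075. The groups overlapped, and the log2 difference of 0.04 had a 95% interval of -0.24 to 0.32 (adjusted p = 0.833). HIST1H3C, a second H3 gene, differed by 0.19 with an interval of -0.08 to 0.45. HIST1H4C, an H4 gene, was at 992, 872 and 865 CPM with DMSO and at 1277.7, 1212.6 and 1623.5 CPM with ABBV-075 (0.57 ± 0.13, adjusted p = 0.00505). HIST1H2BC, an H2B gene, rose from 953, 911 and 974 CPM to 1357.6, 1404.4 and 1837.6 CPM (0.68 ± 0.13, adjusted p = 0.00189), and its annotation spans HIST1H4C on the other strand. ABBV-075 replicate 3 had the highest level in all 4 of these genes. Without it, 21 members rose and 10 fell.

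**Figure D3:**
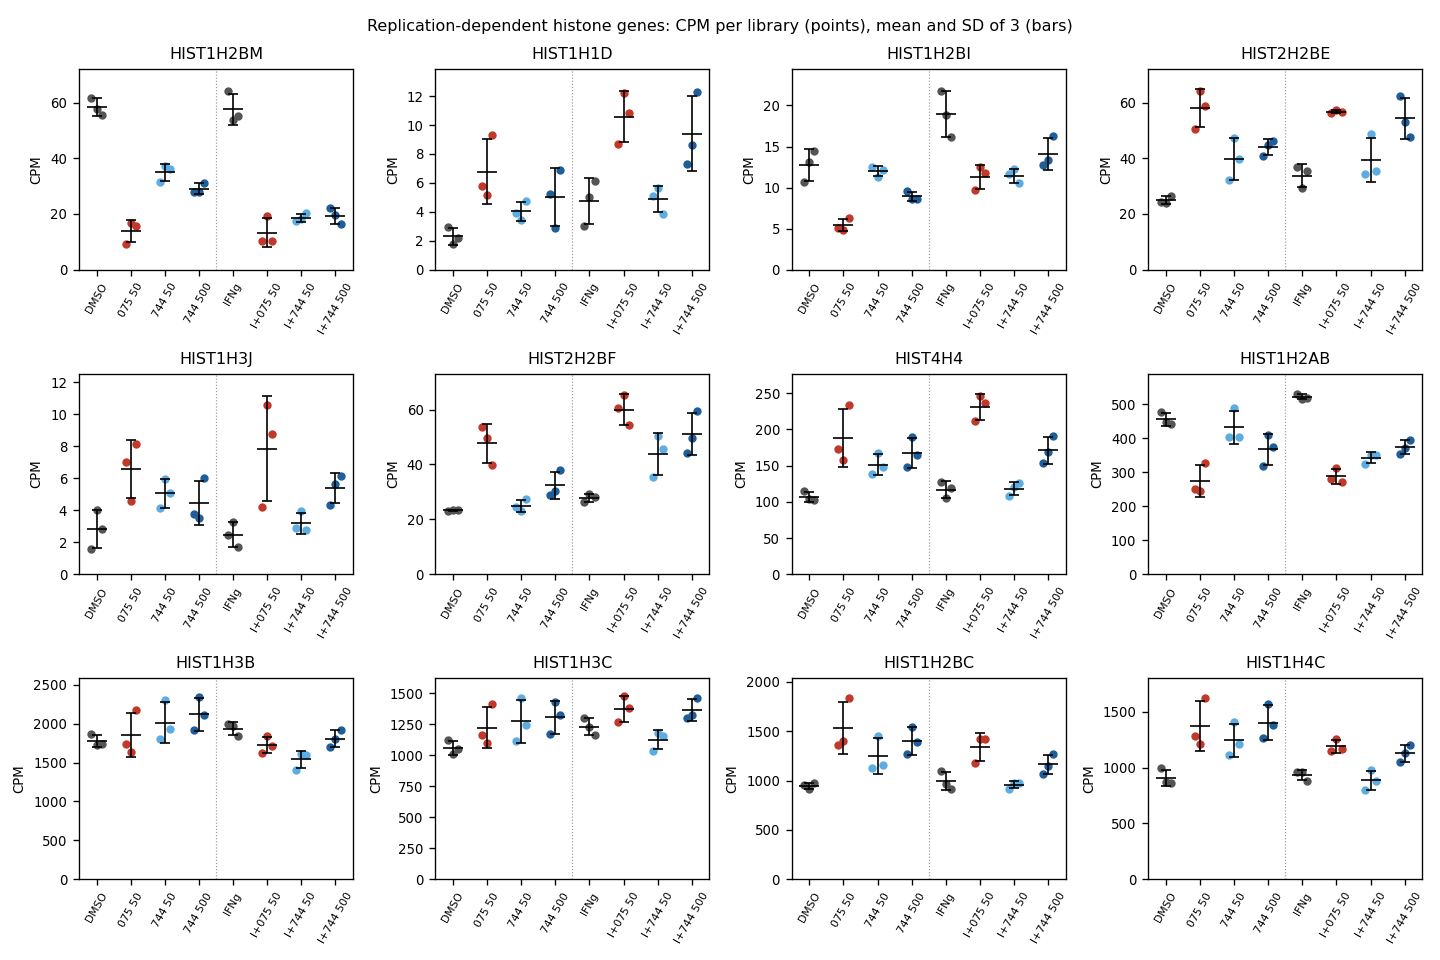
CPM (y axes, from 0) of 12 replication-dependent genes in each library (points), with the mean and SD of the 3 libraries of a group (bars), and with groups named by inhibitor, dose in nM and I for IFNg. HIST1H2BM lay at 55.6 to 61.9 CPM with DMSO and at 9.17 to 16.7 CPM with ABBV-075, and HIST1H3B overlapped between these groups.

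Head-to-head partners of the genes above are given here, with HIST1H2AJ, HIST2H2AC, HIST1H2AC, HIST1H2BO and HIST1H2AM named after their values were seen. HIST1H2BM fell by 2.11 on the log2 scale with ABBV-075 while HIST1H2AJ, which starts from the same stretch, fell by 0.41. Across the stretch of HIST2H2BE (1.19), HIST2H2AC differed by 0.30 and was not called. HIST1H2BC (0.68) and its partner HIST1H2AC (0.54) both rose. HIST1H2BO fell by 0.52 and its partner HIST1H2AM, at 0.28, was not called. The difference between partners was not tested.

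The summed level of the replacement genes went from 1402.4 ± 27.1 CPM (SD, n = 3) with DMSO to 2537.2 ± 137 CPM with ABBV-075. The sum of the replication-dependent genes went from 16156.1 ± 671 CPM to 19043.7 ± 2738.6 CPM. With ABBV-075 this sum was 17595.7, 17333.1 and 22202.3 CPM in replicates 1, 2 and 3, so replicate 3 raised the mean. Replacement genes made up 7.68% to 8.19% of the summed histone CPM with DMSO and 10.8% to 12.4% with ABBV-075, without overlap. The replacement sum includes H2AFX, and members listed without counts, such as H3F3A, add nothing to either sum. In bulk RNA, fewer cells in the phase that makes a message and less of it per cell cannot be told apart. Of the 28 S phase genes tested, 4 rose (14.3%) and 6 fell (21.4%), against 19.8% and 19.6% of all genes, among them CLSPN at 1.11 and MCM5, a subunit of the replicative helicase, at -1.09. Of 20 genes of G2 and mitosis, 10 rose (50%, TOP2A at 1.07) and 4 fell (20%, PLK1 at -1.04). The part of the cell cycle in the histone changes was not tested.

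**Figure D4:**
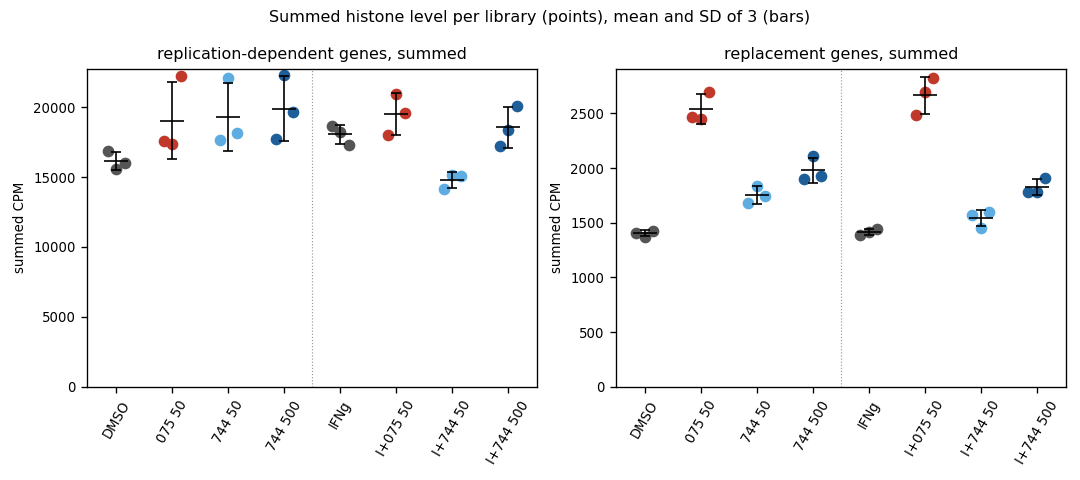
Summed CPM (y axes, from 0) of the replication-dependent genes (left) and the replacement genes (right) in each library (points), with the mean and SD of the 3 libraries of a group (bars). With DMSO the replacement sum was 1402.4 ± 27.1 CPM and with ABBV-075 2537.2 ± 137 CPM, and the replication-dependent sum was lowest, 14781.9 ± 576 CPM, with IFNg+ABBV-744 at 50 nM.

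Of 16 tested genes for histone pre-mRNA processing, 3 rose (18.8%) and 2 fell (12.5%) with ABBV-075, against 19.8% and 19.6% of all genes. NPAT, the cyclin E target that turns on histone clusters, went from a mean of 22.8 to 60.3 CPM (1.38 ± 0.28, adjusted p = 0.00259), and CASP8AP2, a partner in the same nuclear bodies, from 17 to 49.3 CPM (1.52 ± 0.33). SLBP, the stem-loop binding protein, differed by 0.31 ± 0.12 and was not called (adjusted p = 0.0501). Of 23 chaperone and exchange genes, 8 rose (34.8%) and 3 fell (13%). ASF1B, a chaperone of H3 and H4, rose (1.46 ± 0.17) and HIRA, which places the replacement H3, fell (-0.37 ± 0.13).

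ABBV-744 without IFNg was compared with DMSO at both doses. At 50 nM, 18 of 57 tested members rose, 1 fell and 38 were not called, against 8.81% and 10.1% of all genes that rose and fell. At 500 nM, 28 rose, 2 fell and 27 were not called, against 7.48% and 7.8% of all genes. These comparisons share the DMSO libraries with the ABBV-075 comparison and with each other. The replication-dependent genes gave 14 of the rises at 50 nM (29.8% of those tested) and 22 at 500 nM (46.8%), and the replacement genes gave 4 and 6 of 9. The count of rises at 50 nM rested on single libraries, with 8 without DMSO replicate 2, 10 without DMSO replicate 3 and 28 without ABBV-744 replicate 1. At 500 nM it was 16 without DMSO replicate 2 and 18 without DMSO replicate 3. With the GC correction, 12 members rose and 4 fell at 50 nM, and 25 rose and 7 fell at 500 nM. It took the median log2 fold change of the replication-dependent genes at 50 nM from 0.26 to 0.08, and library size alone gave 11 rises at that dose. Tested genes outside the members with a longest transcript of 1 kb or less had a median of 0.16 at 50 nM. Reads aligned to several places made up 66.2% to 69.4% at 50 nM and 64% to 68.1% at 500 nM, against 56% to 61% with DMSO. The part of this share was not tested.

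H1F0 stood at 464, 494 and 467 CPM with ABBV-744 at 50 nM and at 519, 628 and 554 CPM at 500 nM, in both cases above all DMSO libraries and below all ABBV-075 libraries. Its log2 fold changes over DMSO were 0.78 ± 0.09 and 1.03 ± 0.09 (adjusted p = 1.31e-06 and 1.11e-09). HIST1H2BM was the 1 member called lower at 50 nM (4 were with the GC correction), at 31.6, 37.1 and 36.2 CPM (-0.73 ± 0.13), and at 500 nM it was at 27.9, 27.9 and 31.3 CPM (adjusted p = 2.30e-06). HIST1H2AB fell at 500 nM (-0.31 ± 0.09, adjusted p = 0.0221), and H2AFY2, at -0.36, was not called (adjusted p = 0.131). H3F3B differed by 0.11 at 50 nM, with an interval of -0.07 to 0.29, and rose by 0.31 ± 0.08 at 500 nM. The DMSO reads of H2AFJ were few, and its changes of 1.00 and 0.94 passed the test at both doses.

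The 2 doses of ABBV-744 were also compared directly. Without IFNg, 0 of 57 members were called in either direction by edgeR and 0 by DESeq2, with 5 at an unadjusted p under 0.05. Of all genes, 0% were higher and 0.0274% lower. H1F0 differed by 0.25 on the log2 scale between doses, with a 95% interval of 0.03 to 0.47 (adjusted p = 0.799), and HIST1H2BM by -0.27, with an interval of -0.60 to 0.05.

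IFNg alone was compared with DMSO. Of 58 tested members, 4 rose and 0 fell, while 2.76% of all genes rose and 0.695% fell. The fold change was above 0 on the log2 scale in 46 of the 58, and in 49.6% of all genes. At an unadjusted p under 0.05 there were 25 of the 58 and 1586 of all 11217 genes, and DESeq2 called 6 higher and 0 lower. The 4 were HIST2H2AB (0.32), HIST1H2AI (0.30), HIST1H3H (0.26) and HIST1H3D (0.23), all replication-dependent and named after their values were seen. HIST1H3D shares 96.3% of its words with other transcripts. The count was 0 without DMSO replicate 2, 1 without IFNg replicate 2 and 7 without DMSO replicate 1. H1F0 stood at 303, 301 and 347 CPM with IFNg, and its log2 difference from DMSO of 0.18 was not called (adjusted p = 0.231).

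With IFNg present, ABBV-075 was compared with IFNg alone. Of 57 members, 22 rose and 12 fell, against 28.2% and 28.4% of all genes. The replacement genes gave 6 rises and 2 falls of 9, and the replication-dependent genes 16 and 10 of 47. These 10 falls included 1 of 4 tested H1 genes and 1 of 8 tested H3 genes. When a log2 change of 1.5 or more in size was also required, 4 members and 6.17% of all genes passed. H1F0 stood at 831, 850 and 886 CPM against 303, 301 and 347 CPM (1.43 ± 0.08, adjusted p = 5.10e-17). HIST1H2BM stood at 10.2, 19.3 and 10.2 CPM against 64.1, 53.7 and 55.1 CPM (-2.13 ± 0.17, adjusted p = 5.24e-13), and H2AFY2 at 3.98, 3.54 and 5.12 CPM against 20.2, 20.4 and 22.7 CPM (-2.33 ± 0.24). In all 3 genes the groups lay far apart.

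The effect of ABBV-075 with IFNg was set against its effect without IFNg in an interaction over 12 libraries. Of 59 members, 0 passed in either direction by edgeR, with 3 at an unadjusted p under 0.05, and 0.0173% of all genes passed in each direction. Without ABBV-075 replicate 1, 1 member passed as lower.

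ABBV-744 with IFNg was compared with IFNg alone. At 50 nM, 4 of 56 members rose and 29 fell against IFNg alone, while 27.4% of all genes rose and 24.3% fell. The replication-dependent genes gave 1 rise and 26 falls of 46 (56.5% of those tested fell), with a median log2 fold change of -0.29, and the replacement genes 3 rises and 3 falls of 9. After correction for GC content, 11 members rose and 11 fell. The members are richer in GC than other tested genes, with medians of 55.3% and 47.5%, and shorter, with medians of 507 and 3864.5 bases. Tested genes outside the members with a longest transcript of 1 kb or less had a median log2 fold change of -0.28. With all genes split into 4 equal groups by GC, the lowest group had a median log2 fold change of 0.72 in this comparison and the highest -0.33. Without IFNg these medians were -0.30 and 0.24 for the same dose. With ABBV-075 they were 0.39 and -0.14 against DMSO, and 0.54 and -0.17 when IFNg was present in both groups. The parts of GC content and length in the falls were not tested beyond corrections for them.

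HIST1H2BO, an H2B gene named after its values were seen, stood at 524, 510 and 449 CPM with IFNg and at 179, 193 and 187 CPM with IFNg+ABBV-744 at 50 nM. The log2 fold change was -1.39 ± 0.08 (adjusted p = 4.88e-15). HIST1H2BM went to 17.4, 18.1 and 20.2 CPM (-1.62 ± 0.13, adjusted p = 8.55e-12) and HIST1H2AB to 324, 351 and 352 CPM (-0.59 ± 0.07). All these levels lay below those with IFNg alone, where HIST1H2AB stood at 531, 516 and 519 CPM. HIST1H3B, at 1408.2, 1608.3 and 1602.2 CPM, lay below the 1994.6, 1971.1 and 1838.6 CPM of IFNg (-0.31 ± 0.07), and this direction turned to 0.02 with the GC correction, as that of H2AFX (-0.19) turned to 0.10. The 4 that rose were H1F0 (0.41), H2AFV (0.54), H3F3B (0.25) and HIST2H2BF (0.67).

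At 500 nM with IFNg, 16 of 57 members rose and 14 fell, against 22.9% and 22.8% of all genes, and with the GC correction 31 rose and 9 fell. H1F0 stood at 520, 532 and 554 CPM (0.74 ± 0.09), and HIST1H2BM at 22, 19.6 and 16.3 CPM (-1.60 ± 0.15). With IFNg, 24 of 55 members were higher and 0 lower at 500 nM than at 50 nM, by edgeR and by DESeq2 alike, where 1.41% of all genes were higher and 0.29% lower. Replication-dependent genes made up 21 of the 24. Among them HIST4H4 stood at 154, 169 and 191 CPM at the higher dose and at 108, 121 and 126 CPM at the lower (0.57 ± 0.09, adjusted p = 0.000328). The count was 11 without IFNg+ABBV-744 50 nM replicate 1, 13 without its replicate 3 and 11 without IFNg+ABBV-744 500 nM replicate 2, and 0 members were called when all 24 libraries shared one fit.

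The effect of ABBV-744 with IFNg was set against its effect without IFNg in the same kind of interaction. At 50 nM, 40 of 58 members had a lower effect with IFNg than without and 2 a higher one, against 26.5% and 25% of all genes. At 500 nM, 14 had a lower effect and 0 a higher one, against 15% and 18.5% of all genes. With the GC correction, an alternative chosen after the values were seen, 11 had a lower effect and 2 a higher one at 50 nM, and 5 and 4 at 500 nM. The correction used the GC content of the longest annotated transcript of each gene. Among the 11, HIST1H2BN (-1.57) and HIST1H2AC (-1.09) are at 39.5% and 42% there, and HIST1H2BO at 57.8%. For HIST1H2BN and HIST1H2AC these transcripts have 4137 and 1668 bases, against 542 and 519 in forms that end near the stem-loop. The part of the transcript chosen was not tested. Without the correction, the 40 comprised 36 of 48 replication-dependent genes and 4 of 9 replacement genes. The median over all genes was -0.14 at 50 nM and -0.09 at 500 nM. The largest difference without the GC correction was that of HIST1H2BO at 50 nM (-1.51 ± 0.12, adjusted p = 2.14e-10), which was -0.95 with the GC correction. H1F0 differed by -0.40 ± 0.11 (adjusted p = 0.00347), and this turned to 0.01 with the correction. HIST2H2BF (0.52) and H2AFV (0.34, turned to -0.01 by the GC correction) were the 2 with a higher effect, and leaving out single libraries left 0 to 2 of them. The 14 at 500 nM became 5 without DMSO replicate 2, 6 without DMSO replicate 3, 6 and 8 without ABBV-744 500 nM replicates 2 and 3, 9 and 8 without IFNg replicates 1 and 2, and 8 without replicate 1 or 2 of IFNg+ABBV-744 500 nM. The IFNg+ABBV-744 50 nM libraries also had fewer reads that align to several places, 57.5% to 59.6% against 66.2% to 69.4% with ABBV-744 at 50 nM alone, and the 10 most counted genes took 22.7% to 24.3% of their counts against 27.9% to 32.2%. With DMSO these shares were 56% to 61% and 24.7% to 26.9%, and with IFNg alone 58.3% to 66.4% and 26.3% to 26.8%. The part of these shares was not tested. The labels give no batch, and a difference in the handling of the groups cannot be told apart from the treatments.

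NPAT and CASP8AP2 were also followed in the ABBV-744 groups. NPAT stood at a mean of 69.6 CPM with IFNg+ABBV-744 at 50 nM against 21.8 CPM with IFNg (1.70 ± 0.13), and CASP8AP2 at 67.6 against 15.4 CPM (2.15 ± 0.14). With ABBV-744 at 50 nM and no IFNg, NPAT was at 20.8 CPM against 22.8 CPM with DMSO and was not called. Both comparisons had the GC trends over all genes given above, and their part in the values of NPAT and CASP8AP2 was not tested. Of the 16 tested processing genes, 6 rose (37.5%) and 3 fell (18.8%) at 50 nM with IFNg, against 27.4% and 24.3% of all genes. Without IFNg, 1 rose and 1 fell (6.25% each), against 8.81% and 10.1% of all genes. SLBP was not called in either.

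The inhibitors were compared at the matched dose of 50 nM, in 2 pairs, without and with IFNg. The time of ABBV-744 was not given in the sources, so the pairs match in dose only. Without IFNg, 10 of 55 members were higher with ABBV-075 than with ABBV-744 and 9 lower, against 21.4% and 19.4% of all genes. Replacement genes gave 6 of the 10 and 1 of the 9. H2AFJ differed by 1.00, H1F0 by 0.67, H3F3B by 0.66 and H2AFY2 by -1.53. Of 45 replication-dependent genes, 3 were higher and 8 lower, with HIST2H2BF at 0.92 and HIST1H2BM at -1.36. HIST1H3B showed no called difference, with an interval of -0.45 to 0.19. The count of higher members was 5 without ABBV-075 replicate 2 or ABBV-744 replicate 1 and 6 without ABBV-744 replicate 3, and the count of lower ones was 4 without ABBV-075 replicate 1 or 2 or ABBV-744 replicate 2 and 5 without ABBV-744 replicate 3. The GC correction gave 27 higher members.

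With IFNg, 42 of 55 members were higher with ABBV-075 and 1, H2AFY2 (-1.59), was lower, against 16.7% and 17% of all genes. Replication-dependent genes gave 35 of the 42, with a median difference of 0.47. H1F0 differed by 1.09 ± 0.08 (adjusted p = 4.96e-15), H1FX by 1.43 ± 0.11 and HIST4H4 by 1.02 ± 0.09. HIST1H2BM, at 10.2, 19.3 and 10.2 CPM with ABBV-075 and at 17.4, 18.1 and 20.2 CPM with ABBV-744, overlapped between the groups, and its difference of -0.43 had an interval of -0.84 to -0.02 (adjusted p = 0.0949). The count of lower members was 2 without IFNg+ABBV-075 replicate 1 and 3 without its replicate 2.

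Messages that can end in a poly(A) tail were looked at as a group. Of 8 replication-dependent genes known to give a polyadenylated form in some cells, 4 rose (50%) and 0 fell with ABBV-075, against 19.8% and 19.6% of all genes. With ABBV-744, 3 rose and 0 fell at 50 nM (8.81% and 10.1% of all genes), and 4 rose and 0 fell at 500 nM (7.48% and 7.8%). With IFNg+ABBV-075, 4 rose and 2 fell, against 28.2% and 28.4%. With IFNg+ABBV-744, 0 rose and 4 fell at 50 nM (27.4% and 24.3% of all genes), and 2 rose and 4 fell at 500 nM (22.9% and 22.8%). In 10 replication-dependent genes, an annotated transcript that holds the stem-loop runs at least 100 bases past it. Of these genes, 5 were tested: HIST2H2BE, HIST4H4, HIST1H2AC, HIST1H4H and HIST1H3H, a group formed after values were seen. All 5 rose with ABBV-075, by 0.40 to 1.19, with ABBV-744 at 500 nM and with IFNg+ABBV-075, and 3 rose and 0 fell with ABBV-744 at 50 nM. With IFNg+ABBV-744, 0 rose and 1 fell at 50 nM, and 4 rose and 0 fell at 500 nM. In 38 other tested genes, the transcripts that hold the stem-loop end less than 100 bases after it, and 8 rose and 5 fell with ABBV-075. Some of the 38 also have longer annotated transcripts, of up to 2548 bases for HIST1H2BC and 4137 for HIST1H2BN. HIST1H2BC rose (0.68) and HIST1H2BN (-0.10) was not called, so the 2 sets do not part genes by all their annotated ends. The counts do not tell which end the messages had.

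H1F0 kept one order of group means. It was lowest with DMSO (274 to 283 CPM) and IFNg (301 to 347 CPM), followed by IFNg+ABBV-744 at 50 nM (387 to 432 CPM), ABBV-744 at 50 nM (464 to 494 CPM) and the 500 nM groups (520 to 554 CPM with IFNg, 519 to 628 CPM without). ABBV-075 (738 to 775 CPM) and IFNg+ABBV-075 (831 to 886 CPM) were highest. The 2 groups at 500 nM overlapped, and no other neighbours in this order did.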

How the data were processed

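RNA of HepG2 cells was measured in 24 libraries of 8 groups, mapped from the sample labels. The authors depleted ribosomal RNA and made directional libraries; the submitters' processing notes name CASAVA 1.8.2, Trimmomatic 0.33, STAR 2.7.1, DESeq2 and GRCh38 (hg38). The deposited files hold raw read counts per gene symbol, not normalized, from uniquely aligned reads. The annotation behind them was not given in the sources used here. Reads in the sense direction were taken, which held 98.3% to 98.5% of the stranded gene reads.

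Counts were tested with edgeR 4.0.16 in R 4.3.3 (filterByExpr, TMM, glmQLFit, glmQLFTest) on the 2 groups compared, without covariates, with Benjamini-Hochberg adjustment over all genes tested. A gene was called at an adjusted p of at most 0.05. Interactions used 4 groups. CPM are counts scaled to library sizes normalised by TMM. Symbols were paired with GENCODE v44 and RefSeq, with older names matched through RefSeq synonyms. Named were H1F0, each tested replacement gene, the 8 called replication-dependent genes with the largest change in ABBV-075 against DMSO and the 4 most abundant ones. Other members with values were named after they were seen. Members and lists were chosen with earlier results of these data known. Depth limits genes with few reads, and a library at 3 counts or fewer was treated as at the floor. Alternatives were DESeq2 1.42.0, library size alone, other filters and columns, all 24 libraries in one fit, corrections for GC content and transcript length, a replicate block and leaving out each library. GC content and length were those of the longest GENCODE transcript of each gene, which need not be the message that was counted. The GC correction of the interactions was added after the values were seen. The script was tested on simulated data. Proteins were not used here.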

Additional observations from a re-analysis of the deposited data

Results flagged for a closer look

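The test of the difference between the effect of ABBV-744 with and without IFNg marked 3 counts. At 50 nM, 40 histone genes had a lower inhibitor effect with IFNg than without, and 2 had a higher one. At 500 nM, 14 had a lower effect. With the GC correction, which was chosen after the values were seen, 11 and 5 had a lower effect. The IFNg+ABBV-744 libraries stood apart from IFNg alone and from ABBV-744 alone. Over all genes, their difference from IFNg ran opposite along GC content to that of ABBV-744 from DMSO. At 50 nM, the medians of the lowest and highest GC groups were 0.72 and -0.33 with IFNg, and -0.30 and 0.24 without. ABBV-075 ran in the same direction as IFNg+ABBV-744, with 0.39 and -0.14 against DMSO, and 0.54 and -0.17 with IFNg. The labels give no batch, and a difference in handling cannot be told apart from the treatment.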

How the results depend on the processing

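Of 2543 values of the named members under alternatives, 2285 kept their direction and call, 249 lost the call and 9 reversed. H2AFX turned to 0.10 and HIST1H3B to 0.02 in IFNg+ABBV-744 50 nM against IFNg, with the GC correction and with it and the replicate block. With the GC correction of the interaction with IFNg, chosen after the values were seen, H1F0 turned to 0.01, H2AFV to -0.01, HIST1H3B to 0.02 and HIST1H3C to 0.15 at 50 nM, and HIST1H3B to 0.03 at 500 nM. The lower effects numbered 11 at 50 nM and 5 at 500 nM, with 4 higher at 500 nM. The cause was not tested.

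The labels do not say whether replicate numbers pair the libraries. Correlations of same-numbered libraries ranged from -0.18 to 0.34, and no comparison had all above 0.1. For ABBV-744 at 500 nM against 50 nM without IFNg they were 0.25, 0.33 and 0.06, and whether these libraries were paired is not known. With the replicate block, falls with ABBV-744 500 nM numbered 1 and rises with IFNg 2. ABBV-075 against ABBV-744 gave 5 lower, and 3 with IFNg. The 500 nM against 50 nM dose gave 2 higher and 2 lower without IFNg, and the higher interaction at 50 nM 1. The block with GC correction gave 33 rises with ABBV-075, 11 rises and 3 falls with ABBV-744 50 nM, 6 falls at 500 nM, 1 rise with IFNg, 10 rises and 12 falls with IFNg+ABBV-744 50 nM, 32 and 9 at 500 nM, 24 higher between inhibitors, 4 lower with IFNg, and 5 higher between doses.

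The GC correction alone gave 35 rises with ABBV-075, 4 falls with ABBV-744 50 nM and 7 at 500 nM, 11 rises and 11 falls with IFNg+ABBV-744 50 nM, 31 and 9 at 500 nM, 27 higher between inhibitors and 4 lower with IFNg. The length correction gave 3 falls with ABBV-744 50 nM, 2 rises with IFNg, 7 rises and 15 falls with IFNg+ABBV-744 50 nM, 23 higher and 5 lower between inhibitors, 4 lower with IFNg, and 11 higher between doses with IFNg. Library size alone gave 11 rises with ABBV-744 50 nM, 0 with IFNg, 5 lower between inhibitors and 4 with IFNg, 12 higher between doses with IFNg, and 5 lower in the 500 nM interaction. It moved the median of all genes by -0.10 in ABBV-744 50 nM against DMSO and by -0.12 between inhibitors with IFNg. DESeq2 gave 5 lower between inhibitors. One fit of all 24 libraries gave 0 rises with IFNg, 2 lower between inhibitors with IFNg and 0 higher between doses with IFNg. A minimum of 10 counts gave 2 lower between inhibitors with IFNg.

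Leaving out 1 library gave 4 to 10 falls with ABBV-075, 8 to 28 rises with ABBV-744 50 nM, 16 to 28 rises and 1 to 3 falls at 500 nM, 0 to 7 rises with IFNg, 5 to 10 higher and 4 to 12 lower between inhibitors, 1 to 3 lower with IFNg, 11 to 30 higher between doses with IFNg, 0 to 1 lower in the ABBV-075 interaction, 0 to 2 higher in that of ABBV-744 50 nM, and 5 to 21 lower at 500 nM.

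Depth limited HIST1H1D, HIST1H3J and H2AFJ, which had few reads, and genes with near-identical copies, which counts of unique reads cannot hold.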
